A study of Mus musculus with 41 samples.

Results

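The regions described here carried H3K4me1 in resting cortical neurons of both LSD1n genotypes and had neither H3K4me2 nor RNA polymerase II (Pol II) called over them. They were 9631 of the 37106 H3K4me1 regions of the LSD1n WT library at KCl 0 h on chromosomes 1 to 19 (26%). A region was a member if it overlapped an H3K4me1 region of the LSD1n KO library at 0 h by at least 1 bp, no H3K4me2 region at 0 h or 1 h, and no peak of either Pol II list at 0 h. The first condition left 17449 regions (47% of all), H3K4me2 then removed 7582, and Pol II alone removed another 236. Of all WT 0 h regions, H3K4me2 lay over 26.2% at 0 h and 22% at 1 h, and Pol II at 0 h over 4.89% in the list labelled WT and 5.51% in the list labelled KO. The members were thus chosen by measured calls of H3K4me1, H3K4me2 and Pol II, which are given as description. Readouts of the other lists were not used in the choice.

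H3K4me1 is a mark of enhancers, the DNA elements that raise transcription of genes from a distance. An enhancer that carries H3K4me1 without further marks of activity is often called primed, meaning that it can be switched on later, while H3K4me2 and bound Pol II are more usual at active enhancers and at promoters. LSD1, also known as Kdm1a, removes methyl groups from mono- and dimethylated H3K4, and neurons splice an extra exon into it to make the isoform LSD1n, which the series title names as a demethylase of H4K20. H4K20me1 and H3K36me3 are marks of transcribed gene bodies. The usual mark of active enhancers, H3K27ac, was not analysed here, so the term primed was not checked against it and the regions are called by their marks.

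The material was primary mouse cortical neurons at 10 days in vitro, bathed in 55 mM KCl, which depolarizes them, for 0 h or 1 h. Histone marks and Pol II were measured by chromatin immunoprecipitation and sequencing (ChIP-seq) in LSD1n WT and LSD1n KO neurons, except H3K4me2, which was measured in LSD1n WT alone. An antibody to LSD1 was used in wild type neurons at 0 h and 1 h, in LSD1n WT neurons at 0 h and in LSD1n KO neurons for which the labels give no KCl time. A Flag antibody was used in neurons labelled R26/LSD1n and R26/LSD1c at both times, here called Flag-LSD1n and Flag-LSD1c. The labels do not say which cells drive the Flag-tagged proteins, how the KO was made, or whether animals were pooled. The cell type was not checked against marker genes, because no mm9 gene annotation was used here. For the same reason members are given by position (mm9, counted from 1), without genes or sequences.

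Each group had 1 library, except H4K20me1 in LSD1n WT at 1 h with 2, so no difference between groups could be tested. Bracketed ranges are exact Clopper-Pearson 95% intervals that cover counting error only, not the spread between cultures. The 27 lists came from libraries of 6990017 to 34859557 tags, the 2 H3K4me2 libraries being the shallowest (9.42 and 6.99 M tags, M standing for 1e6). A region without a call for H3K4me2 can therefore hold the mark below the caller's threshold, which was 13.8 and 17.2 tags per 10 M in 500 bp, against 8.76 for H3K4me1 in WT at 0 h. Inside each of the 4 Pol II files the name carries the other genotype than its label, so the lists are called labelled WT and labelled KO.

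Members were wider at the median than all WT 0 h H3K4me1 regions, and intermediate among the classes compared. Their median width was 807 bp (interquartile range 501 to 1403 bp), and they covered 10.5 Mb in all. Of the members, 27.1% were at 501 bp, the smallest region in the list, and 953 (9.9%) were wider than 2000 bp. All 37106 regions had a median of 655 bp, with 40% at 501 bp and 8.68% wider than 2000 bp. The shared regions with H3K4me2 and without Pol II at 0 h were wider than the members, with a median of 1157 bp in 6239 regions. The 15292 regions called in WT alone at 0 h, without H3K4me2 and Pol II, had a median of 501 bp. Since a wide region meets an overlap rule more easily, some comparisons with these classes are also given by width. The members were spread over the autosomes, from 23.4% of the H3K4me1 regions of chromosome 10 to 28% of those of chromosomes 9 and 13.

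The KO region that made a member shared was usually a single one and often covered it only in part. A single KO region overlapped 98.2% of members (9461), and 1573 members (16.3%) were covered over their full length. The median member was covered over 59.7% of its length (interquartile range 35.8% to 87.9%). Just inside the rule, the member chr1:57931575-57932509 overlapped its KO region by 1 bp. Just outside, chr7:108339144-108340592 touched a KO region with 0 bp of overlap. At the other limit, the member chr2:143370528-143371028 touched a barred feature without overlap, and chr1:184913432-184914176 was left out for 1 bp of a Pol II peak.

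After 1 h of KCl most members were still called with H3K4me1, more of them in the KO library than in the WT library. The share was 73.7% in WT (72.8 to 74.6; 7102 members), beside 62.8% of all WT 0 h regions. In KO it was 89.1% (88.4 to 89.7; 8579 members), beside 74.4% of all. Both libraries called 6670 members (69.3%), WT alone 432 (4.49%), KO alone 1909 (19.8%), and neither 620 (6.44%), beside 54.6%, 8.2%, 19.8% and 17.4% of all regions. The rule requires the call in both 0 h lists, so a member could be without the call at 1 h but could not gain it. Of all 37106 regions, 19657 were not called in KO at 0 h, which enters these backgrounds. The other shared classes had higher shares than the members. Shared regions with H3K4me2 had 90.6% in WT and 95.8% in KO, and shared regions with Pol II at 0 h 91.7% and 96.1%.

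The KO library at 1 h was also the deepest of the 4 H3K4me1 libraries, with 34.9 M tags against 23.0 to 24.0 M, and its calling threshold was the lowest, 7.46 tags per 10 M against 8.76 to 9.14. With each 1 h list cut to its widest 33244 regions, the length of the shortest H3K4me1 list, the shares were 67.3% in WT and 79% in KO. Genotype, depth and threshold cannot be told apart with 1 library each.

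Width went with the call at 1 h. In WT the share was 51.5% among members of 501 bp, 71% from 502 to 1000 bp, 88.8% from 1001 to 2000 bp and 97.7% above 2000 bp. In KO the shares were 77.5%, 88.7%, 96.6% and 99.2%. None of the 953 members wider than 2000 bp was without H3K4me1 in both 1 h lists (exact upper limit 0.386%), while 15.2% of those of 501 bp were. Within each width class the members lay between the other groups. In WT, shared regions with H3K4me2 reached 70.9% at 501 bp and 99.4% above 2000 bp, and bare regions called in WT alone reached 29.6% and 94%.

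**Figure D1:**
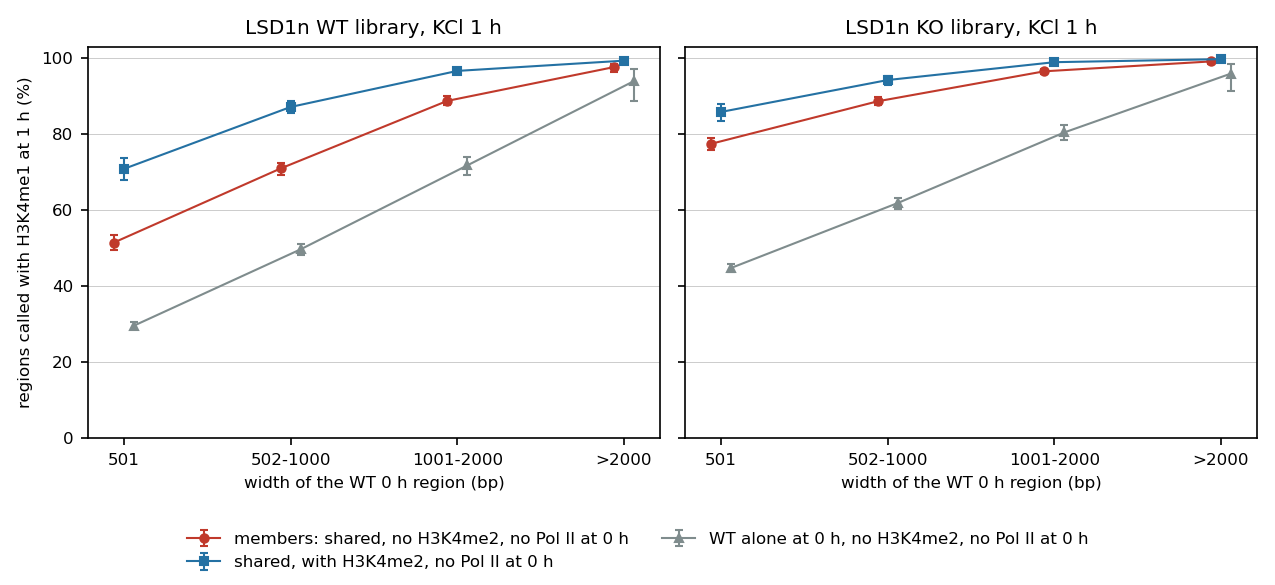
Share of H3K4me1 WT 0 h regions (vertical axis, %) that were called again with H3K4me1 at KCl 1 h in the LSD1n WT (left) and LSD1n KO (right) library, by width of the region in bp, with exact 95% intervals for counting error. Members (red) ran from 51.5% to 97.7% in WT and from 77.5% to 99.2% in KO, between the shared regions with H3K4me2 (blue) and the bare regions called in WT alone (grey).

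The length of H3K4me1 around the members showed the same contrast between the libraries. Counted within 2 kb of each member, the median length called was 1002 bp in WT at 0 h, 1131 bp in WT at 1 h, 939 bp in KO at 0 h and 1729 bp in KO at 1 h. Summed over members the 4 lists covered 11.9, 12.8, 11.6 and 18.7 Mb. Over all members the 0 h values of both genotypes were thus close to each other, and the KO list at 1 h stood above the other 3. By width the 0 h ratios of KO to WT went both ways, with medians of 1.29 at 501 bp, 1.01 from 502 to 1000 bp, 0.735 from 1001 to 2000 bp and 0.633 above 2000 bp, the classes being cut on the WT 0 h list.

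Per member, the length at 1 h was a median of 1.01 times that at 0 h in WT (interquartile range 0.596 to 1.56). It was larger in 50.6% of members, beside 46.7% of all WT 0 h regions, and smaller in 46.1%. In KO the median ratio of 1 h to 0 h was 1.57 (1.1 to 2.37), larger in 79.7% of members, beside 78.8% of all regions and 83.5% of those with any KO length at 0 h. The length at least doubled in 34.4% of members in KO, beside 40.4% of the 23038 regions with any KO length at 0 h, and in 14.2% in WT, beside 13.9% of all. At 1 h the KO length was a median of 1.32 times the WT length over the 8176 members with any WT length, and larger in 73.6% of members (63.6% of all regions), and at 0 h the median ratio of KO to WT was 1.0 (larger in 43.8%, beside 23.6% of all). Regions outside the member set need not be called in KO at 0 h, which enters that last background. Depth at KO 1 h moves with these values too.

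In WT the ratio of 1 h to 0 h was lower in wider members, and in KO it was higher. The medians in WT were 1.22 at 501 bp, 1.08 from 502 to 1000 bp, 0.971 from 1001 to 2000 bp and 0.938 above 2000 bp. The medians in KO were 1.4, 1.55, 1.7 and 1.76 in the same order. The width classes were cut on the WT 0 h list itself, which is the denominator of the WT ratio but not of the KO ratio, so the 2 series are not alike in construction.

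**Figure D2:**
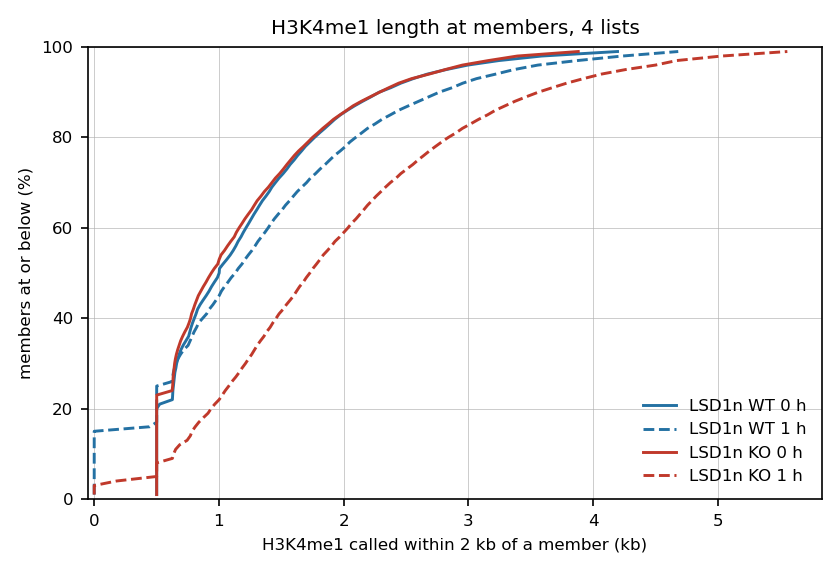
Cumulative share of the 9631 members (vertical axis, %) by the length of H3K4me1 called within 2 kb of the member (horizontal axis, kb), for the WT (blue) and KO (red) libraries at 0 h (solid) and 1 h (dashed). The 0 h curves nearly coincide (medians 1002 and 939 bp), and the KO 1 h curve lies to the right of the others (median 1729 bp).

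The 3 widest members show that a wide region can be called in pieces and with or without H4K20me1. The widest, chr10:39095175-39110001, measured 14827 bp in WT at 0 h. H3K4me1 covered 8697 bp of it in KO at 0 h, 9580 bp in WT at 1 h and 13212 bp in KO at 1 h, and H4K20me1 covered 95.9% of it in WT and 100% in KO at 0 h. The second, chr14:79598275-79606659 (8385 bp), kept 7685 bp in WT at 1 h and held 2184 bp in KO at 0 h and 4632 bp in KO at 1 h, with no H4K20me1 in any list. The other, chr2:26348854-26357050 (8197 bp), passed the rule through only 346 bp of KO signal at 0 h and was covered over 7182 bp in WT and 6519 bp in KO at 1 h. None of these 3 had an LSD1, Flag or Pol II site.

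The 3 widest members without an H3K4me1 call in either 1 h list were chr15:79625827-79627817, chr12:71415985-71417937 and chr4:32422755-32424601, of 1991, 1953 and 1847 bp. H3K4me1 in KO at 0 h covered 501, 890 and 501 bp of them. All 3 overlapped H4K20me1 in WT at 0 h, KO at 0 h and replicate 1 of WT at 1 h.

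A small share of members, none of which had Pol II at 0 h, had a Pol II peak at 1 h. In either list 402 members had one (4.17%, 3.78 to 4.59), beside 9.5% of all WT 0 h regions. The list labelled WT marked 204 members (2.12%, beside 6.88% of all) and the list labelled KO 256 (2.66%, beside 7.58%), and 58 members (0.602%, beside 4.96%) were in both. The rule bars Pol II at 0 h from the members but not from all regions, so these backgrounds hold regions that had Pol II before KCl. Against classes under the same bar, the members' 4.17% stood between 11.9% of shared regions with H3K4me2 and 1.52% of bare regions called in WT alone. By width the members' share was 1.61% at 501 bp, 3.07%, 5.98% and 9.34% above 2000 bp, against 5.18%, 5.77%, 13.4% and 21.8% in the class with H3K4me2.

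The Pol II libraries at 1 h were deeper than those at 0 h, with 21.6 and 22.3 against 14.6 and 16.7 M tags. Of the 9867 shared regions without H3K4me2, 402 had Pol II at 1 h alone, 138 at 0 h alone and 98 at both times. The part of depth in this difference was not tested.

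The 402 members with Pol II at 1 h were wider than the rest, with a median of 1319 bp against 795 bp. H3K4me1 was called at WT 1 h in 90.3% of them (87 to 93) and in 73% of the others. An LSD1 site in wild type at 1 h lay in 28.1% of them (23.8 to 32.8) and in 9.76% of the others. H4K20me1 in WT at 0 h was less frequent among them, at 13.4% (10.3 to 17.2) against 21.3%. These contrasts are given within the members only, without the same split over all regions.

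The 3 widest members with Pol II in both 1 h lists were chr4:123248288-123252530 (4243 bp), chr2:157575689-157579461 (3773 bp) and chr10:13913330-13917028 (3699 bp). All 3 kept H3K4me1 in all 4 lists. The first also had an LSD1 site in wild type at 0 h and H4K20me1 over its full length in WT at 0 h. The second had H3K36me3 over 501 bp in WT at both times and no LSD1 site, and the other had an LSD1 site in wild type at 1 h and no H4K20me1.

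LSD1 antibody sites are peaks of 201 bp. In the wild type lists the members' shares were close to those of all H3K4me1 regions, and in the LSD1n WT and LSD1n KO lists they were lower. In wild type, 964 members (10%, 9.42 to 10.6) had a site at 0 h, beside 11.6% of all, and 1014 (10.5%, 9.92 to 11.2) at 1 h, beside 10.2%. Of these, 381 members had a site at both times (3.96%, beside 4.27%), 583 at 0 h alone (6.05%, beside 7.32%) and 633 at 1 h alone (6.57%, beside 5.97%). In LSD1n WT neurons 429 members (4.45%, beside 6.99%) had a site, and in LSD1n KO neurons 409 (4.25%, beside 6.56%), with 153 members in both (1.59%, beside 3.36%), 276 in WT alone (2.87%, beside 3.63%) and 256 in KO alone (2.66%, beside 3.2%). The rule bars H3K4me2 and Pol II at 0 h from the members but not from all regions. Bare regions called in WT alone, which are under the same bar, had lower shares than the members. Theirs were 3.93% and 3.34% in wild type at 0 h and 1 h, 1.39% in LSD1n WT and 1.97% in LSD1n KO. These bare regions were narrower than the members, and at 501 bp the gap in wild type was smaller. There the wild type shares were 5.17% in members and 3.11% in bare regions at 0 h, and 4.98% and 2.63% at 1 h. The labels do not say which isoforms of LSD1 the antibody binds.

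A site in any of the 4 LSD1 antibody lists was found in 1906 members (19.8%, 19 to 20.6), beside 21.1% of all regions. Most of these members were in 1 list only, 460 were in 2, 138 in 3 and 58 in all 4 (0.602%, beside 1.37%). The share was higher in wider members, from 10.8% at 501 bp to 14.8%, 28.4% and 34.7% above 2000 bp. It was 34.2% in the shared regions with H3K4me2 and 7.75% in the bare regions called in WT alone.

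Members with an LSD1 site differed from those without in the other readouts. Their median width was 1245 bp against 765 bp. Pol II was called at 1 h in 9.29% of them (8.02 to 10.7) and in 2.91% of the others (2.55 to 3.31). Splits by LSD1 site are given for members only, so they do not show a trait particular to members. The comparison classes also differed in both readouts. LSD1 sites and Pol II at 1 h lay in 34.2% and 11.9% of shared regions with H3K4me2. In bare regions called in WT alone they lay in 7.75% and 1.52%. Within width classes the Pol II shares with and without an LSD1 site were 2.49% and 1.5% at 501 bp, where the intervals overlapped. They were 7.08% and 2.38% from 502 to 1000 bp, 11.1% and 3.94% from 1001 to 2000 bp, and 13.6% and 7.07% above 2000 bp. The intervals cover counting error only, and no difference between the 2 sets of members was tested.

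H3K4me1 at 1 h was called in 83.1% of the members with an LSD1 site and in 71.4% of those without in WT, and in 95.9% and 87.4% in KO. At equal width these gaps were smaller: from 1001 to 2000 bp they were 90% and 88.4% in WT. H4K20me1 in WT at 0 h went the other way and lay over 14.4% of members with an LSD1 site (12.8 to 16) and 22.6% of those without (21.7 to 23.6). It was lower with a site in all 4 width classes, from 9.25% against 19.3% at 501 bp to 27.8% against 40.5% above 2000 bp.

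**Figure D3:**
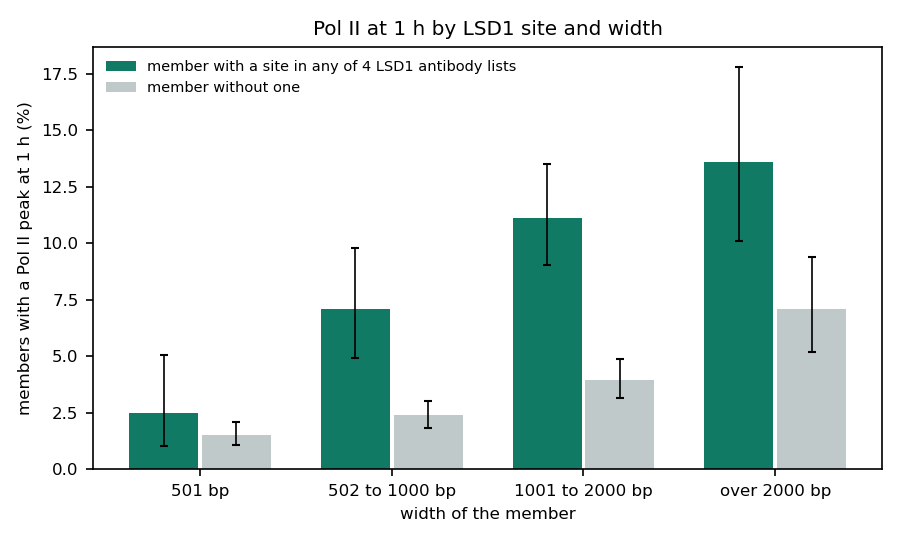
Share of members with a Pol II peak in either list at KCl 1 h (vertical axis, %) by width of the member, for members with (green) and without (grey) a site in any of the 4 LSD1 antibody lists; error bars are exact 95% intervals for counting error. With a site the share was 2.49% against 1.5% at 501 bp, where the intervals overlap, and 13.6% against 7.07% above 2000 bp. No difference was tested.

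Sites of the Flag-tagged proteins were rare in the members. Flag-LSD1n marked 7 members at 0 h and 7 at 1 h (0.0727% each), beside 0.41% and 1.3% of all WT 0 h regions. Flag-LSD1c marked 16 at 0 h (0.166%, beside 1.29%) and 24 at 1 h (0.249%, beside 1.89%). Any Flag list marked 44 members (0.457%, 0.332 to 0.613), beside 3.38% of all, 4.28% of shared regions with H3K4me2 and 26.6% of shared regions with Pol II at 0 h. The rule bars H3K4me2 and Pol II at 0 h from the members, while none of these 3 backgrounds is under both bars. The shared regions with H3K4me2 are under the Pol II bar only. In the bare regions called in WT alone, which are under both bars, the share was 0.222% (0.154 to 0.311), lower than in the members. Read from the sites, 7 of 4336 Flag-LSD1n sites at 1 h (0.161%) lay in a member, while 11.3% lay in any H3K4me1 WT 0 h region. Of the 18258 wild type LSD1 antibody sites at 1 h, 5.63% lay in a member and 21.4% in any such region. The Flag lists were shorter than the LSD1 antibody lists, and antibody, tag and neurons differ between them.

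The positions of the sites around the members also differed between the antibodies. Wild type LSD1 sites were densest at the centre of the members, with 45.2 and 42.6 sites per 1000 members in the 500 bp on either side of the centre at 0 h and 50.4 and 43.2 at 1 h. At 4.5 to 5 kb from the centre the densities were 6.96 to 9.24. Flag-LSD1n at 1 h had 0.623 and 0.311 sites per 1000 members at the centre and 6.13 and 7.16 at 1 to 1.5 kb. Flag-LSD1c at 1 h had 1.35 and 0.831 at the centre and 6.54 and 8.2 at 1 to 1.5 kb. A lower Flag density at the centre was not limited to the members. In shared regions with H3K4me2, Flag-LSD1n at 1 h had 5.61 and 6.89 sites per 1000 regions at the centre and 31.1 and 30.8 at 1 to 1.5 kb.

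A Flag site outside the member but within 2 kb of it was found for 601 members (6.24%). Of these, 97.2% (95.5 to 98.3) also had an H3K4me2 region or a Pol II 0 h peak within 2 kb, against 12.5% (11.9 to 13.2) of the 8986 members without a Flag site at that distance. An LSD1 antibody site lay beside 1971 members in the same way, and 46.3% of them (44.1 to 48.5) had such a feature within 2 kb, against 10.8% (10 to 11.6) of the 5754 members without an LSD1 site at that distance. The rule used H3K4me2 and Pol II at 0 h and lets them lie only outside a member, so these shares are given as description.

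**Figure D4:**
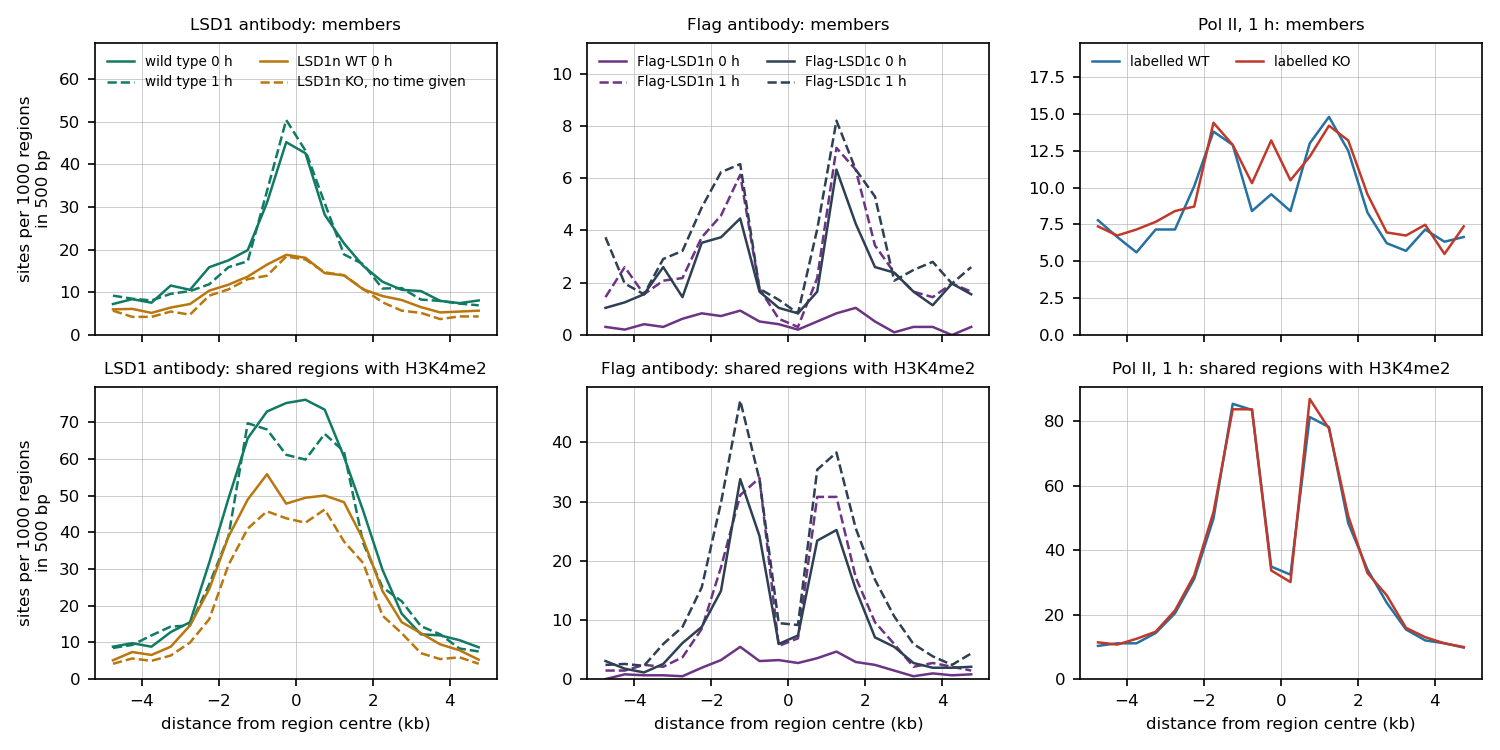
Sites per 1000 regions in 500 bp steps (vertical axis, scales differ between panels) by distance from the region's centre (horizontal axis, kb), for the 9631 members (top) and the 6239 shared regions with H3K4me2 and no Pol II at 0 h (bottom), with LSD1 antibody, Flag antibody and Pol II 1 h lists from left to right. In members, wild type LSD1 sites peak at the centre (45.2 to 50.4 in the higher step), while Flag-LSD1n at 1 h has a minimum there (0.311) and shoulders of 6.13 and 7.16 at 1 to 1.5 kb; in the regions with H3K4me2 it is also lower at the centre (5.61 and 6.89, against 31.1 and 30.8).

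The members in the most of the 8 LSD1 and Flag lists were in all 8, and there were 2 of them, both of 501 bp. The member chr9:123782182-123782682 was in 16 of the 27 lists, with H4K20me1 in 4 of 5 lists and no H3K4me1 call at 1 h in either genotype. The other, on chromosome 18, was in 18 of the 27 lists and had Pol II in both lists at 1 h. Without these members, 42 had a Flag site in any list.

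Over all widths, H4K20me1 lay over members about as often as over all H3K4me1 regions. In WT at 0 h it overlapped 2021 members (21%, 20.2 to 21.8), beside 21% of all. By width, that WT share was 18.2% of members and 15.5% of all at 501 bp. Above 2000 bp it was 36.1% and 39.6%. In KO at 0 h H4K20me1 overlapped 2534 members (26.3%, 25.4 to 27.2), beside 26.6%. Both lists marked 1800 members (18.7%, beside 18.7%), WT alone 221 (2.29%, beside 2.34%) and KO alone 734 (7.62%, beside 7.86%). The higher share in KO was thus present in members and in all regions alike, and the KO list held more regions (36291 against 25429) from 21.3 against 18.5 M tags.

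Members with H4K20me1 often lay fully inside its regions. Of those overlapped, 50.7% were fully inside H4K20me1 in WT at 0 h and 62.3% in KO. The share of members overlapped by at least 1 bp was higher in wider members. It was 36.1% in WT and 43.8% in KO above 2000 bp, against 18.2% and 22.5% at 501 bp. At 501 bp, shared regions with H3K4me2 had 23.9% and 28.5%, and bare regions called in WT alone 13.7% and 20.3%. Above 2000 bp these classes had 46.2% and 50.8%, and 34.2% and 36.2%. The members thus lay between them in both width classes. Over all widths, shared regions with H3K4me2 had 34.2% and 39%, and bare regions called in WT alone 15.5% and 21.7%.

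At 1 h the H4K20me1 lists were too uneven for a comparison. The 2 WT libraries gave 1905 members (19.8%, beside 19.7% of all) and 252 members (2.62%, beside 3.05%), a mean of 11.2% ± 12.1 (SD, n = 2), and nothing in the labels says that they came from separate cultures. KO at 1 h gave 789 (8.19%, beside 8.85%), a value within the range of the 2 WT libraries. The titles of KO and of the WT library with 252 members begin with hs70l2, that of the other WT library with hs64l8. Tags in peaks made up 2.98%, 0.881% and 10.2% of these libraries in that order. Any of the 5 lists marked 2892 members (30%, beside 30.8%) and all 5 marked 189 (1.96%, beside 2.29%).

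H3K36me3 was rare over members and overlapped 582 in any of the 4 lists (6.04%, beside 6.49% of all). It overlapped 288 in WT at 0 h (2.99%, beside 3.4% of all), 402 in WT at 1 h (4.17%, beside 4.57%), 114 in KO at 0 h (1.18%, beside 1.62%) and 97 in KO at 1 h (1.01%, beside 1.44%). The KO libraries were shallower, with 13.1 and 12.6 M tags against 19.1 and 16.8 M. H3K36me3 and H4K20me1 in WT at 0 h lay together over 154 members (1.6%, beside 2.08%). Of the 288 with H3K36me3 in WT at 0 h, 53.5% (47.5 to 59.3) also had H4K20me1 in that group, against 20% (19.2 to 20.8) of the others. The overlap of these marks was not limited to the members. Over all WT 0 h regions, 773 of the 1260 with H3K36me3 in WT at 0 h also had H4K20me1. That is a larger share than the members' 53.5%.

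In 4946 members (51.4%, 50.4 to 52.4) no list other than H3K4me1 had a call. The same holds for 49.4% of all regions when the H3K4me2 lists and the Pol II 0 h lists, which the rule used, are set aside. Of these members, 3109 (32.3% of members) had H3K4me1 in all 4 lists, beside 12.3% of all regions, of which 19657 were not called in KO at 0 h. With the rule's lists set aside in the same way, the comparison classes stood on both sides of the members' 51.4%, with 66.6% in the bare regions called in WT alone and 27.1% in the shared regions with H3K4me2.

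**Figure D5:**
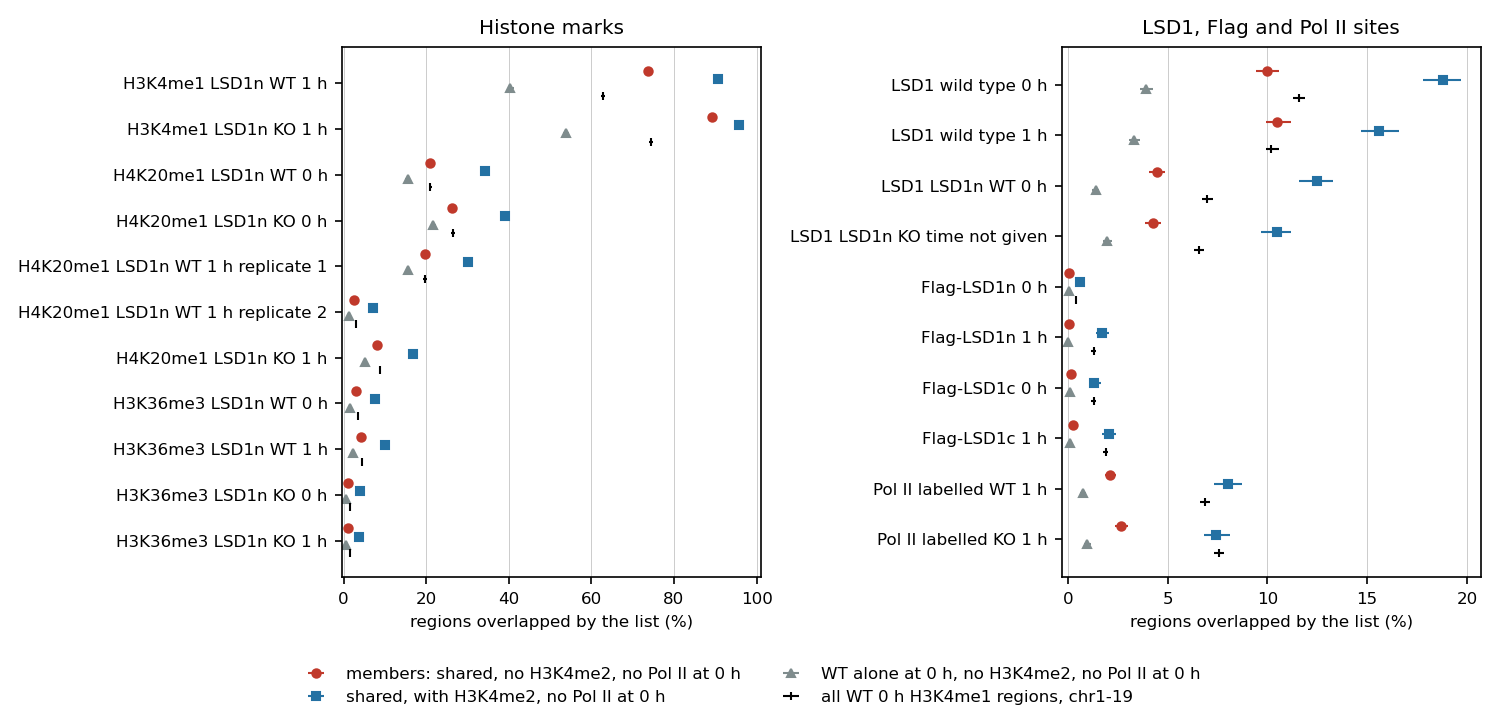
Share of regions overlapped by each list (horizontal axes, %, scales differ) for histone marks (left) and for LSD1, Flag and Pol II sites (right), with exact 95% intervals for counting error. In each list shown members (red circles) lie between shared regions with H3K4me2 (blue squares) and bare regions called in WT alone (grey triangles), as with LSD1 in wild type at 0 h (10%, 18.8% and 3.93%).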

How the data were processed

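The data are 27 ChIP-seq peak lists of primary mouse cortical neurons, 1 per library. Bowtie, HOMER and the mouse build mm9 are listed, with no versions, per the submitters' processing notes. The authors joined peaks of 500 bp into regions for the histone marks, per the file headers, and called Pol II, LSD1 and Flag sites at a fixed size of 200 bp. Such a site needed 4-fold more tags than its 10 kb surroundings. The false discovery rate was 0.001 throughout, 1 tag was kept per position, and no control library is named in the headers. What the authors deposited is the start and end of each peak, with a score of 1 in every entry. Total tags were read from the headers.

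Groups were taken from the labels. For the Pol II lists, where the name inside the file gives the opposite genotype, the labels were kept. Overlaps of at least 1 bp were counted per region with Python 3.11.15 and numpy 2.4.6, exact intervals with scipy 1.17.1, and figures with matplotlib 3.10.9. The overlap code was tested on simulated data. Peak strength is not in the lists, so a call and its width are the only measures, and both depend on depth. With 1 library per group no test was run. H3K4me1 length was summed within 2 kb of each member. Members were compared with 6239 shared regions with H3K4me2 and no Pol II at 0 h, 15292 regions called in WT alone without either, and all 37106 regions on the autosomes.

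The members, the classes and the lists compared were chosen with earlier results of these data known. Named members are the 3 widest of all, of those without H3K4me1 at 1 h, of those with Pol II in both 1 h lists, and of those in the most LSD1 and Flag lists (only 2 existed), and the regions nearest to the rule's limits. The alternatives were an overlap of 50% of the region, a distance of 1 kb, the widest 50% of regions, the KO list as the start, H3K4me2 barred at 0 h alone, equal list lengths, each replicate left out, and other distances for length. No mm9 genome or annotation was used here, so the planned gene lists, markers and motifs were not run. Samples of GRO-seq (10) and RNA-seq (4) were not analysed here.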

Additional observations from a re-analysis of the deposited data

How the results depend on the processing

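The number of members was 5768 with an overlap of 50% of the WT region by KO and 6088 in the widest 50% of the WT list. With 50% of the member covered, the shares were 54.3% and 74.9% for H3K4me1 at 1 h in WT and KO, 15.7% and 21% for H4K20me1 at 0 h in WT and KO, 1.03% for H3K36me3 in WT at 0 h, and 0% for both Pol II at 1 h and wild type LSD1 at 0 h, since a site of 201 bp cannot cover 50% of 501 bp. Within 1 kb they were 82.6%, 95.1%, 24.4%, 29.4% and 5.02% in the same order, with 9.7% for Pol II and 18.5% for LSD1. In the widest 50% of members they were 88.9%, 96.3%, 23.8%, 29.7%, 3.74%, 6.21% and 14%. Members without H3K4me2 or Pol II within 1 kb had 18.9% and 23.8% for H4K20me1 in WT and KO, 2.54% for H3K36me3 and 10.8% for LSD1. Equal H3K4me1 list lengths gave 67.3% in WT and 79% in KO at 1 h, and equal LSD1 list lengths, chosen after seeing the data and taken in list order, gave 7.68% at 0 h. Leaving out each replicate of H4K20me1 in WT at 1 h gave 2.62% to 19.8%. Without added distance the length ratios were 0.567 (WT, 1 h to 0 h), 1.17 (KO, 1 h to 0 h), 0.597 (KO to WT, 0 h) and 1.03 (KO to WT, 1 h), and within 5 kb 1.06, 1.69, 0.989 and 1.39. Only the first, against 1.01 within 2 kb, changed direction. Without added distance neither it nor the ratio of KO to WT at 0 h can exceed 1, because the WT 0 h list covers each member in full. The H3K4me1 share at 1 h was higher in KO than in WT in 7 of 7 settings, and H4K20me1 at 0 h in 6 of 6. No paired analysis was possible because the result comes from no test and groups other than 1 hold a single library.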

Other observations

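Regions of the same kind were also chosen from the 1 h lists and looked up at 0 h. Of 44683 H3K4me1 regions of LSD1n WT at 1 h on the autosomes, 32186 overlapped KO at 1 h, and 18454 of these had no H3K4me2 at either time and no Pol II at 1 h. WT at 0 h called 54.6% of these 18454 (53.9 to 55.3), beside 50.7% of all 44683 regions. KO at 0 h called 48.7% of the 18454 (48 to 49.4), both 33.8% and neither 30.5% (5624 regions). These last 3 shares are given without a background. The KO list at 1 h that chose this set was the longest and deepest of the 4, so its size and the member set's size are not on the same footing. This set was added after the data were seen.

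Members lay closer to another H3K4me1 region than the bare regions called in WT alone. The gaps over all H3K4me1 regions are not given. The median gap to the next H3K4me1 WT 0 h region was 6.35 kb, against 9.42 kb for the bare regions called in WT alone, and 44.2% of members (43.2 to 45.2) had one within 5 kb, against 35.5%. The next member was a median of 30 kb away. Gaps to H3K4me2 and Pol II were similar in the 2 classes. An H3K4me2 region at 0 h lay at a median of 27.1 kb from members and 28.7 kb from the bare regions. It lay within 1 kb for 10% of members and 8.84% of bare regions, and within 50 kb for 65.7% and 63.5%. A Pol II peak at 0 h lay at a median of 36.6 kb from members and 36.8 kb from bare regions. Among chromosomes the share of members called again at 1 h ran from 70.4% (chromosome 10) to 77.7% (chromosome 8) in WT and from 85.9% (chromosome 13) to 91.1% (chromosome 10) in KO.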
